A study of Mus musculus with 6 samples.

Results

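The genes described here are the Toll-like receptors Tlr2, Tlr4, Tlr5 and Tlr7, the adaptors Myd88, Tirap and Ticam1, and the accessory proteins Cd14, Ly96 and Unc93b1, in mouse liver with and without TLR3. The set names 10 genes, and each was represented by the probe set that maps to that gene symbol alone. Of the 10, 9 had such a probe set, among 19938 genes that had 1, and the array annotation used here held none for Tlr5. The receptor Tlr2, the co-receptor Ly96, the chaperone Unc93b1 and the adaptors Myd88, Tirap and Ticam1, 6 genes in all, were above the lowest deposited value of 5 (log2 signal, called the floor) on all 6 arrays. Tlr4, Tlr7 and Cd14 stood at the floor on all 6 arrays.

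Total liver RNA came from untreated mice, 3 months of age, with 1 array per mouse. TLR3-/- mice (n = 3) lack the receptor TLR3, and the TLR3wt mice (n = 3) carry it. The series names C57Bl/6 as the strain, although the labels of the TLR3-/- samples do not repeat it, and all mice were bred by the submitters under SPF conditions. The targeting allele, the number of backcrosses and whether any mice were littermates are not given in the sources used here. The comparison asks how the other members of the receptor family and their adaptors stand in a liver that lacks TLR3.

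Toll-like receptors recognise microbial and damaged-cell molecules and pass the signal on through adaptors that carry a TIR domain. TLR2 (lipopeptides), TLR4 (lipopolysaccharide, together with CD14 and the Ly96 product MD-2) and TLR5 (flagellin) act at the cell surface, while TLR3 (double-stranded RNA) and TLR7 (single-stranded RNA) act in endosomes, where UNC93B1 delivers them. All of these receptors use MYD88 except TLR3, which signals through TRIF, the product of Ticam1. In liver, Kupffer cells, the resident macrophages, are a main carrier of these receptors, and hepatocytes and endothelial cells carry some of them too.

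The upstream sequences of Tlr2 and Myd88 are shown because Tlr2 had the largest difference of the set and Myd88 is the adaptor it uses. Each is the 250 bases before the gene's start in RefSeq (build GRCm38.p6), 5′ to 3′ on the gene's strand, which is the minus strand for both. Capitals mark matches to the NF-kappaB motif in Tlr2 (chr3:83841609-83841858) and to the interferon-response motif (GAAA, any 2 bases, GAAA) in Myd88 (chr9:119340019-119340268).
Tlr2: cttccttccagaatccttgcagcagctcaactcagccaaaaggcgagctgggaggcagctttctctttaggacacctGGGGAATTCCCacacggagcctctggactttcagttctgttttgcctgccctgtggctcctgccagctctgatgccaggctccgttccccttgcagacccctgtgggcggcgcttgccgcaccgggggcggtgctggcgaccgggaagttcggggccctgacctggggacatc
Myd88: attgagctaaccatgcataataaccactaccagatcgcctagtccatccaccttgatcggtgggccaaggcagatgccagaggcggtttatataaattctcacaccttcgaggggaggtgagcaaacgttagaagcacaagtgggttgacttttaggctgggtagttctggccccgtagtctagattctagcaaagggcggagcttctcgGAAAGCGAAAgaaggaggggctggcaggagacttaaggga

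In Tlr2 the NF-kappaB motif matched 3 times, with 2 matches on the gene's strand and 1 on the opposite strand, all overlapping within the stretch from 173 to 163 bases before the start. The opposite-strand match covers the same bases as 1 of the others, GGGAATTCCC, which reads the same on both strands, so it is not a further site. Of 32536 upstream windows of the same length, 7.28% held an NF-kappaB match on either strand. The interferon-response match in Myd88 lay 40 to 31 bases before the start, and 2.98% of all windows held 1. Of the set, 5 genes had an upstream window in the sequence table, and in Tlr5, Ticam1 and Tirap neither of these motifs was matched. A match describes the letters in the window and does not show binding.

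Each array had 15081 to 15226 probe sets above the floor. Correlations between arrays over the 16639 tested probe sets were 0.984 to 0.991 within and 0.980 to 0.988 between the groups. The targeted gene gave no check of the genotype labels, since Tlr3 (probe set 10578493) read 5 in every liver of both genotypes. All 9 hepatocyte markers with a probe set were above the floor, with Alb, which encodes albumin, at 13.02 to 13.09 on every array.

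Among the receptors, Tlr2 was the 1 with measurable signal, and its values were lower in each TLR3-/- liver than in any TLR3wt liver, a difference that did not pass the adjusted test. The Tlr2 probe set (10498992) read 5.55, 5.54 and 5.57 in TLR3wt replicates 1 to 3 and 5.21, 5.07 and 5.19 in TLR3-/- replicates 1 to 3 (log2 signal). The TLR3wt livers were nearly equal, and the groups did not overlap. The means were 5.55 ± 0.01 and 5.16 ± 0.08 (SD, n = 3 each), and the log2 difference, TLR3-/- minus TLR3wt, was -0.39 with a 95% interval of -0.54 to -0.25. This corresponds to a 1.31-fold lower signal with bounds of 1.19-fold and 1.45-fold. The limma adjusted p was 0.0990 (unadjusted 0.000482), and 80 of the tested probe sets had a smaller p. Among all tested probe sets, 2.68% were lower by at least as much as Tlr2. All 6 values lay close to the floor, where a difference can be understated.

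Tlr4, Tlr7 and Cd14 could not be compared. The probe sets of Tlr4 (10505517), the lipopolysaccharide receptor, and Tlr7 (10607870) read 5 in every liver, as did that of Cd14 (10458382), the co-receptor that hands lipopolysaccharide to TLR4 and MD-2. A value at the floor is a bound on the signal and not a measured level, so these 3 genes have no fold and no test.

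**Figure D1:**
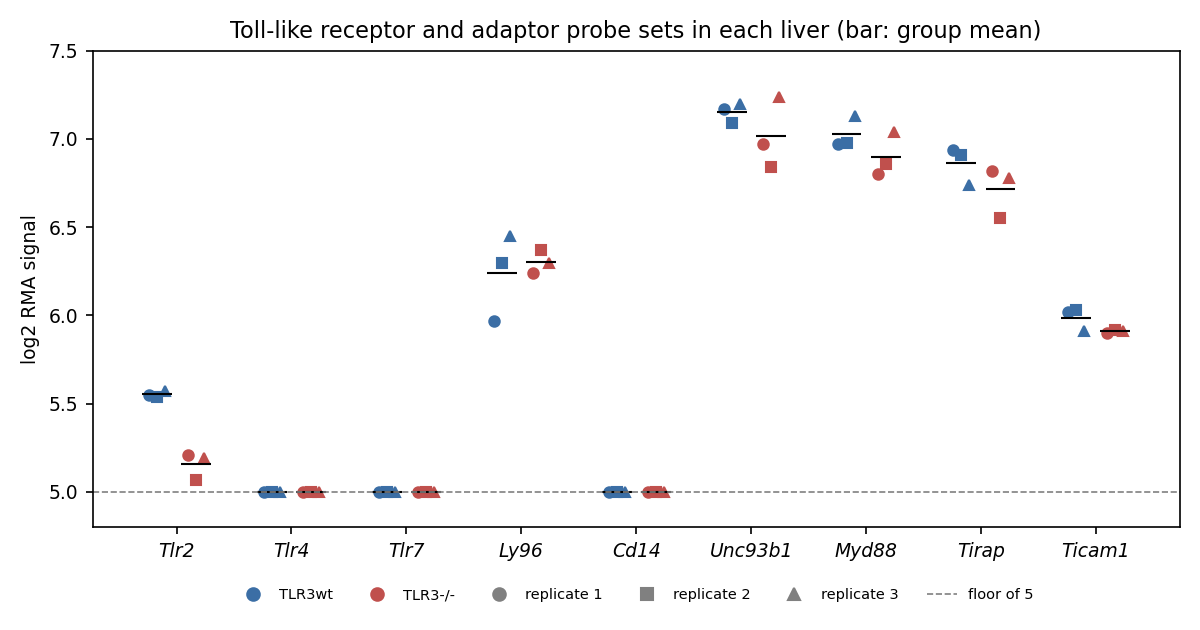
Log2 RMA signal (vertical axis) of the 9 genes with a probe set in each of 6 livers, with TLR3wt in blue, TLR3-/- in red, a marker shape per replicate and a bar at each group mean; the dashed line is the floor of 5. Tlr2 is the gene whose groups are apart (5.54 to 5.57 against 5.07 to 5.21), Tlr4, Tlr7 and Cd14 lie on the floor, and the groups of the other 5 genes overlap.

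The accessory genes with signal overlapped between the genotypes. Ly96 (10344966), which encodes the MD-2 subunit that binds lipopolysaccharide, read 5.97, 6.30 and 6.45 in TLR3wt and 6.24, 6.37 and 6.30 in TLR3-/- livers. TLR3wt replicate 1 held the lowest Ly96 value and TLR3wt replicate 3 the highest, with all TLR3-/- values between them. The log2 difference was 0.06 (95% interval -0.24 to 0.37, limma adjusted p = 0.855), and without TLR3wt replicate 1 it was -0.07, so no direction can be given for Ly96. Unc93b1 (10460237), the chaperone that carries nucleic acid-sensing receptors from the endoplasmic reticulum to endosomes, read 7.17, 7.09 and 7.20 in TLR3wt and 6.97, 6.84 and 7.24 in TLR3-/- livers. TLR3-/- replicate 3 was the highest of all 6 mice, while the other TLR3-/- mice were the lowest. Its log2 difference was -0.14 (95% interval -0.41 to 0.12, limma adjusted p = 0.614), and leaving out 1 mouse moved it to between -0.25 (TLR3-/- replicate 3 left out) and -0.05 (TLR3-/- replicate 2 left out).

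The 3 adaptor genes each had a slightly lower mean in TLR3-/- livers, within the spread between mice. Ticam1 (10452022), the adaptor of TLR3 itself, read 6.02, 6.03 and 5.91 in TLR3wt and 5.90, 5.92 and 5.91 in TLR3-/- livers. TLR3wt replicate 3 lay within the TLR3-/- range, and the TLR3-/- livers were nearly equal. The log2 difference was -0.07 (95% interval -0.21 to 0.06, limma adjusted p = 0.608), so the interval reaches to a 1.16-fold lower and a 1.04-fold higher signal. Without TLR3wt replicate 3 the difference was -0.11. Myd88 (10597648), the adaptor shared by the other receptors of the set, read 6.97, 6.98 and 7.13 in TLR3wt and 6.80, 6.86 and 7.04 in TLR3-/- livers. Replicate 3 was the highest in both groups, and TLR3-/- replicate 3 exceeded TLR3wt replicates 1 and 2. The log2 difference of Myd88 was -0.12 (95% interval -0.33 to 0.08, limma adjusted p = 0.560), with bounds of 1.26-fold lower and 1.06-fold higher. It was -0.07 without TLR3wt replicate 3 or TLR3-/- replicate 1 and -0.19 without TLR3-/- replicate 3. Tirap (10592106), the bridging adaptor that brings MYD88 to TLR2 and TLR4 at the membrane, read 6.94, 6.91 and 6.74 in TLR3wt and 6.82, 6.55 and 6.78 in TLR3-/- livers. TLR3wt replicate 3 lay below TLR3-/- replicates 1 and 3, so the groups overlapped. Its log2 difference was -0.15 (95% interval -0.38 to 0.09, limma adjusted p = 0.535), and it was -0.06 without TLR3-/- replicate 2.

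Of the 6 tested genes of the set, 0 passed a limma adjusted p of 0.05, where 0.186% of all tested probe sets did (31 of 16639, 23 higher and 8 lower in TLR3-/-, or 8 and 6 with each array centred on its median). No alternative fit brought any gene of the set past the threshold either. The count of 31 was itself unstable: it was 0 without TLR3wt replicate 1, 0 without TLR3wt replicate 2, 13 without TLR3wt replicate 3, and 1, 1 and 0 without TLR3-/- replicates 1, 2 and 3. At an unadjusted limma p under 0.05 the set had 1 gene lower (Tlr2) and 0 higher, beside 5.25% of all tested probe sets lower and 9.21% higher. The groups did not overlap for 1 gene, Tlr2, where 7.04% of all tested probe sets had every TLR3-/- value below every TLR3wt value and 13% had every TLR3-/- value above. Means were lower for 5 of the 6 genes above the floor and higher for Ly96. Their median log2 difference was -0.13, against 0.03 over the 10347 tested genes, of which 39.1% had a lower mean in TLR3-/- livers. The median was -0.07 without TLR3-/- replicate 2 and also -0.07 when the 3 genes at the floor entered as 0.

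The wider pathway was read from 5 further lists with 60 genes, of which 53 had a probe set, 11 stood at the floor on all arrays and 42 were tested. None of the 42 passed limma's adjusted p of 0.05 in either direction, while 8 were lower and 1 was higher at an unadjusted p under 0.05 (5.25% and 9.21% of all tested probe sets). The groups were apart for 8 genes with TLR3-/- below and for 5 with TLR3-/- above (7.04% and 13% of all tested probe sets), so the 5 genes above are near the share of the whole table. The median log2 difference of the 42 genes was -0.05.

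**Figure D2:**
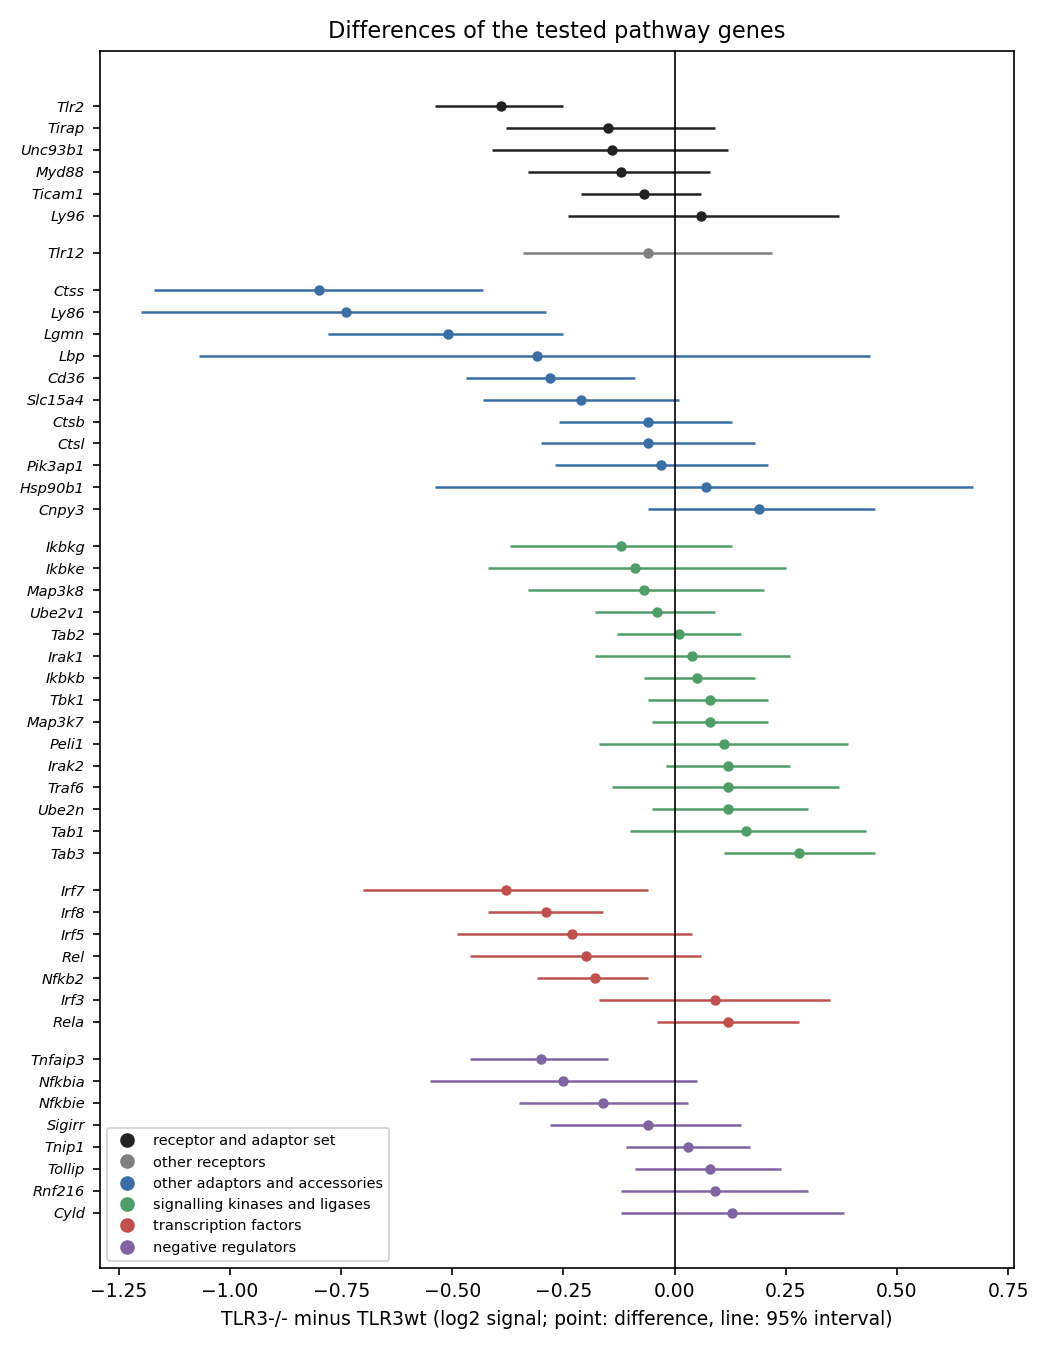
Log2 difference, TLR3-/- minus TLR3wt (horizontal axis), with its 95% interval from limma for the 6 tested genes of the set and 42 other pathway genes, grouped and coloured by role. The intervals of Tlr2, Ctss, Ly86, Lgmn, Cd36, Irf7, Irf8, Nfkb2 and Tnfaip3 lie below 0, that of Tab3 lies above 0, and those of the adaptors Ticam1, Myd88 and Tirap include 0.

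Of the other receptors, 5 of the 6 with a probe set (Tlr1, Tlr6, Tlr8, Tlr9 and Tlr13) were at the floor in every liver. Tlr1 and Tlr6 encode the usual partners of TLR2. Tlr12 was above the floor on some arrays only and read 5, 5.38 and 5 in TLR3wt and 5, 5.12 and 5.08 in TLR3-/- livers. These values overlapped, with a log2 difference of -0.06 (limma adjusted p = 0.854). Tlr2 was thus the only receptor of the family above the floor on all 6 arrays, among those with a probe set.

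Proteins that process or accompany the receptors held the largest differences of the pathway. Of 14 such genes 11 were tested, 9 had lower and 2 higher means, and 0 passed the limma adjusted p, with a median log2 difference of -0.21. Ctss encodes cathepsin S, a lysosomal protease that can cleave endosomal receptors, and read 7.97, 8.41 and 8.19 in TLR3wt and 7.36, 7.19 and 7.63 in TLR3-/- livers, with no overlap (log2 difference -0.80, limma adjusted p = 0.138). Ly86, which encodes MD-1, a relative of MD-2, read 6.18, 6.87 and 6.48 against 5.84, 5.56 and 5.91 (-0.74, limma adjusted p = 0.183). Lgmn, the gene of the endosomal protease legumain, had a log2 difference of -0.51 and Cd36, a scavenger receptor that works with TLR2, of -0.28 (limma adjusted p = 0.154 and 0.212). The groups of these 4 genes did not overlap, beside 7.04% of all tested probe sets with TLR3-/- wholly below. The 4 were named for the smallest unadjusted p of their list, a choice that favours groups apart. Ticam2, the adaptor that joins TRIF to TLR4, and Cd180, the partner of MD-1, were at the floor on all arrays, as was the adaptor gene Sarm1.

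Kinases and ubiquitin ligases downstream of the adaptors differed little. All 15 with a probe set were tested, 4 had lower and 11 higher means, 0 passed, and the median log2 difference was 0.08, beside a median of 0.03 over all tested genes, of which 39.1% had a lower mean. Tab3, a subunit that links ubiquitin chains to the kinase TAK1, read 5.94, 5.86 and 5.73 in TLR3wt and 6.15, 6.12 and 6.09 in TLR3-/- livers, with the groups apart (log2 difference 0.28, limma adjusted p = 0.184). Irak2, a kinase family member recruited by MYD88, had a log2 difference of 0.12 with the groups apart, while Ube2n (0.12) and Tab1 (0.16) overlapped. Ube2n had 2 probe sets, of which the brighter was read, and Tab1 stood at the floor in TLR3wt replicate 1. Map3k7, which encodes TAK1, and Tbk1, the kinase that activates IRF3, also had groups apart with TLR3-/- above (0.08 each) and are named after their values were seen. The 4 genes of this list with the TLR3-/- group wholly above stand beside the 13% of all tested probe sets in that state.

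Among 7 tested transcription factors of the pathway, 5 had lower and 2 higher means, 0 passed, and the median log2 difference was -0.20. Irf8, a factor of myeloid cells, read 5.91, 5.89 and 5.97 in TLR3wt and 5.60, 5.63 and 5.66 in TLR3-/- livers, with the groups apart (log2 difference -0.29, limma adjusted p = 0.122). Nfkb2, a subunit of NF-kappaB, was apart too (-0.18, limma adjusted p = 0.199), whereas Irf7 (-0.38) and Irf5 (-0.23), which act below MYD88, overlapped. Rela, the main activating subunit of NF-kappaB, had its TLR3-/- values above (0.12), and is named after its values were seen. Of 8 tested inhibitors of the pathway, 4 had lower and 4 higher means, 0 passed, and the median was -0.02. The ubiquitin-editing inhibitor Tnfaip3 read 5.20, 5.34 and 5.37 in TLR3wt livers and stood at the floor in all TLR3-/- livers, at least 1.23-fold lower from the TLR3wt mean against 5 (limma adjusted p = 0.144). Nfkbie (-0.16, groups apart), Nfkbia (-0.25) and Cyld (0.13) were the next by unadjusted p. TLR3-/- was wholly below for 2 factors and 2 inhibitors and wholly above for 1 factor, beside 7.04% and 13% of all tested probe sets.

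Markers of macrophages, the liver cells best known for these receptors, mostly had lower means in the same TLR3-/- livers. Of 20 macrophage and Kupffer cell markers, 19 had lower means and 17 had every TLR3-/- value below every TLR3wt value, with a median log2 difference of -0.79 and 0 past limma's adjusted p of 0.05 (17 at an unadjusted p under 0.05, smallest limma adjusted p = 0.0994). Over the whole table, 39.1% of tested genes had a lower mean, 7.04% of tested probe sets had TLR3-/- wholly below and 5.25% were lower at that unadjusted p. The 4 with the highest mean signal, a rule for naming and not a ranking of expression, were Slc40a1 (-0.29), the iron exporter, Clec4f (-0.69), a Kupffer cell lectin, Mpeg1 (-1.02), a pore-forming protein, and Cd5l (-0.73), a protein secreted by macrophages. The summed signal of all 20 was 11.85 to 12.26 in TLR3wt and 11.02 to 11.62 in TLR3-/- livers (log2), and no marker of the list was at the floor on all arrays. Fcgr1 was at the floor in all TLR3-/- livers. Averaged over the list, TLR3-/- replicate 2 lay lowest, at -1.02 relative to the TLR3wt mean, against -0.58 and -0.50 in TLR3-/- replicates 1 and 3. The same mouse had the lowest values of Tlr2, Unc93b1 and Tirap, and not of Myd88, Ly96 or Ticam1. RNA of whole liver cannot tell fewer cells of a type from less RNA per cell, and the part of macrophage content in the Tlr2 values was not tested.

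**Figure D3:**
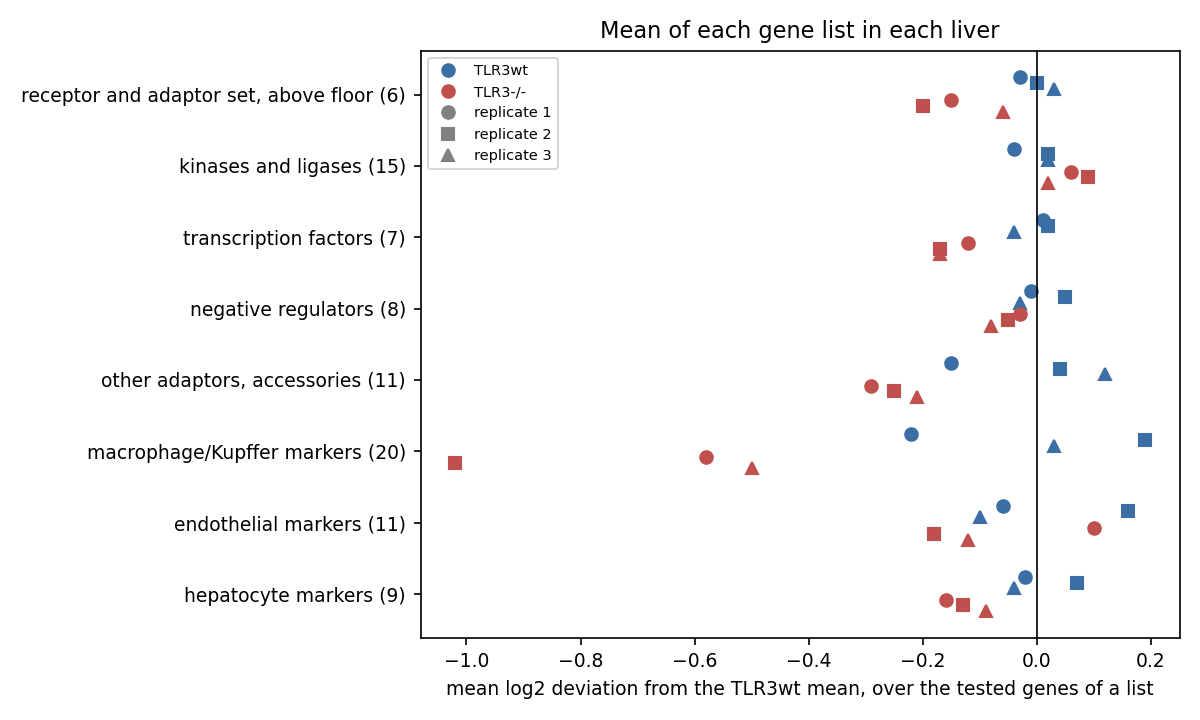
Mean log2 deviation from the TLR3wt mean (horizontal axis) for each liver over the tested genes of 8 lists, with TLR3wt in blue, TLR3-/- in red and a marker shape per replicate; the number of genes is in brackets. The 6 receptor and adaptor genes lie at -0.20 to -0.06 in TLR3-/- livers, with Tlr2 weighing most, and the 20 macrophage markers at -1.02 to -0.50. The averages of the endothelial markers overlap between the groups.

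Averaged over the 6 genes of the set above the floor, the deviation from the TLR3wt mean was -0.03, 0.00 and 0.03 in TLR3wt replicates 1 to 3 and -0.15, -0.20 and -0.06 in TLR3-/- replicates 1 to 3. Tlr2, with a log2 difference of -0.39, weighs most in these averages, and each of the other genes overlapped between the groups. Markers of other receptor-bearing immune cells were mostly not measurable. All 12 neutrophil markers and all 7 B cell markers with a probe set were at the floor in every liver, as were 8 of 10 markers of T and NK cells and 6 of 10 of dendritic cells. Of the 4 tested dendritic cell markers, Bst2 (-0.29) and Zbtb46 (-0.23) had TLR3-/- values below all TLR3wt values, beside 7.04% of all tested probe sets, and Tcf4 (0.00) and Clec9a (-0.04) overlapped. None of the 4 passed the limma adjusted p, with 2 lower at an unadjusted p under 0.05, beside 5.25% of all tested probe sets. Of 11 endothelial markers 5 had lower and 6 higher means, with a median log2 difference of 0.01 and 0 past the limma adjusted p. TLR3-/- was wholly below for 2 of them, Lyve1 (-0.56) and Pecam1 (-0.24), beside 7.04% of all tested probe sets. The same 2 were lower at an unadjusted limma p under 0.05, beside 5.25% of all tested probe sets.

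Profiles over the 6 mice were compared for the 3 genes of the set with the widest range, by the root mean square difference of log2 values after each gene was centred on its own mean. Among 97 tested pathway and marker genes, Tlr2 was closest to Irf8 (0.073), the macrophage-list gene Il18bp (0.076) and Tnfaip3 (0.079), where Tlr2 itself had a root mean square of 0.201 about its mean. All 4 genes had the groups apart, which the choice by distance favours, since most of the Tlr2 spread lay between the groups. Tnfaip3 stood at the floor in all TLR3-/- livers. For Ly96 the closest were Pik3ap1 (0.098), a signalling adaptor, Irak1 (0.101) and Peli1 (0.104), against 0.150 for Ly96 about its own mean. For Unc93b1 they were Irf5 (0.10), Ctsb (0.102) and Zbtb46 (0.109), against 0.142. The distances for Ly96 and Unc93b1 were not much smaller than the distance to a flat profile, so these likenesses are loose.

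**Figure D4:**
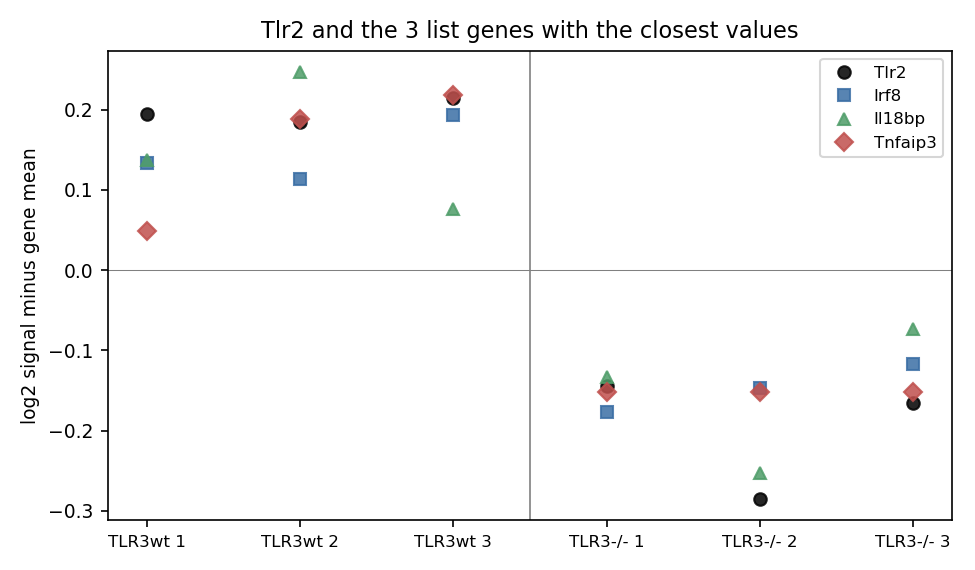
Log2 signal minus the gene's mean over 6 livers (vertical axis) for Tlr2, Irf8, Il18bp and Tnfaip3 in each liver (horizontal axis, TLR3wt left of the line and TLR3-/- right). All 4 genes are above their mean in the 3 TLR3wt livers and below it in the 3 TLR3-/- livers. The choice of the closest profiles favours this likeness. Tlr2 is lowest in TLR3-/- replicate 2.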

How the data were processed

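Total liver RNA of 6 mice was hybridised to 1 oligonucleotide array each. The deposited values are log2 signals, and no value is below 5. Per the submitters' processing notes, the authors used RMA and Affymetrix Expression Console. What set this floor, and the build of the array annotation, are not given in the sources used here. Between 57.2% and 57.6% of an array's values stood at the floor, and each column's median was 5. Scale was taken from the values, and the number of arrays limits the precision.

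Probe sets were named from the array annotation (21789 with 1 symbol, 1621 with several, 12147 with none), and gene identifiers were used to bring symbols up to date with the GRCm38.p6 table. A gene took its 1-symbol probe set with the highest mean over the 6 arrays. Mean signal over the arrays chose the probe set of a gene and the markers named, and marker signals were summed per array, but no order of expression was read from different probe sets. The genotypes were compared in R 4.3.3 by limma 3.58.1 (lmFit, eBayes, two-sided, Benjamini-Hochberg over 16639 probe sets, threshold 0.05), leaving out the 18918 that read 5 on every array. Intervals are limma's and are not adjusted for the number of tests. The genes, lists, filter and alternatives were chosen with earlier results of these data known.

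The text names all genes of the set and Tlr3, from each pathway list up to 4 genes with the smallest unadjusted p, from marker lists up to 4 of the brightest, and for the 3 genes of the set with the widest range the 3 closest profiles. Other names follow a count or are marked in the text. The comparison of TLR3-/- and TLR3wt was simulated over 16631 probe sets, 200 of them changed. Changes of 0.5, 1 and 2 (log2) were called in 51.7%, 88.3% and 93.7% of cases, with 9 false calls among 167. These changes were placed in probe sets more than 1 above the floor, so the rates do not cover Tlr2 or Ticam1. The simulated noise was independent, with spreads shuffled between probe sets, so the rates need not hold for a given gene in these livers. Mpeg1, for example, had a log2 difference of -1.02 and did not pass (limma adjusted p = 0.141).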

Additional observations from a re-analysis of the deposited data

How the results depend on the processing

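The alternatives changed filters, normalisation, variance model, array weights, annotation, probe set choice and the mice included. The count of 0 for the set and of 0 for the 42 other pathway genes held in each of them. The Tlr2 difference ranged from -0.42 to -0.35 (limma or ordinary adjusted p 0.0799 to 0.370) over 17 alternatives. It had no value with probe sets whose mean is more than 1 above the floor, where Ticam1 had none either. Ly96 was the 1 gene of the set that turned, at -0.07 without TLR3wt replicate 1, and without 1 mouse it ranged from -0.07 to 0.17. The count of 31 probe sets over the table fell to 0 with no filter on the floor and to 18 with values above the floor on all arrays. It was 9 after quantile normalisation again, 14 with arrays centred and 2 with ordinary variances. It was 1 with 1-symbol probe sets, 3 with identical probe sets once and 0 to 13 without 1 mouse. The count stayed near 31 in other settings. It was 29 with means more than 1 above the floor and 33 with the probe sets of a gene averaged. With array weights it was 35, as with an intensity trend and robust prior. With no filter, the genes at the floor brought the median of the set to -0.07. Without 1 mouse that median was -0.19 to -0.07, and that of the macrophage markers -0.93 to -0.54. The labels do not say whether the replicate numbers pair mice. Same-numbered mice did not deviate together (correlations 0.048, -0.012 and -0.063), which with so few mice cannot settle whether they were paired. With the replicate number as a block, 4 probe sets passed and 0 of the set, and Tlr2 was at -0.39 (limma adjusted p = 0.271). Signal near the floor limits Tlr2, and leaves Tlr4, Tlr7 and Cd14 unmeasured.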

Other observations

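Other cell types of the liver gave the following values. Of 9 hepatocyte markers, 7 had lower and 2 higher means in TLR3-/- livers, 0 passed limma's adjusted p of 0.05 (3 at an unadjusted p under 0.05, all lower, beside 5.25% of all tested probe sets, smallest limma adjusted p = 0.187), and the median log2 difference was -0.04. The 3 were Pck1 (-0.61), Tat (-0.39) and Hnf4a (-0.26), named after their values were seen. Among the 4 with the highest mean signal, Alb (-0.01), Apoa1 (-0.10), Ttr (0.04) and Cyp2e1 (0.25), Cyp2e1 had every TLR3-/- value above and Apoa1 every TLR3-/- value below all TLR3wt values. Tat and Hnf4a were wholly below too, whereas Pck1 overlapped. Of the 9 markers, TLR3-/- was thus wholly below for 3 and wholly above for 1, beside 7.04% and 13% of all tested probe sets. Of 8 tested stellate cell markers, 3 had lower and 5 higher means (median 0.12, 0 passed). At an unadjusted limma p under 0.05, 1 was higher, Ecm1 (0.20), beside 9.21% of all tested probe sets. Ecm1 was also the 1 marker of this list with TLR3-/- wholly above, beside 13% of all tested probe sets. Dcn, the matrix proteoglycan gene decorin, had a difference of 0.17 with overlapping groups. Reln (0.17) and Colec11 (0.06) overlapped too. Bile duct markers were at the floor for 4 of 5 genes with a probe set.

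SP1 letters (GGGCGG, either strand) were found in the upstream windows of Tlr2, Tlr5, Ticam1 and Myd88 and in 1 of the 2 windows of Tirap. Of all windows, 33.0% held them. The letters GAGGAAGT of the myeloid factor PU.1 were in none of these windows and in 2.45% of all windows.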
